A study of Mus musculus with 7 samples.

Results

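Transcript levels of 40 mouse genes for ribosome biogenesis and the nucleolus were examined in 4T1 cells (a murine line of triple-negative mammary carcinoma) taken back out of mammary fat pad tumors. The genes were listed by name for their known function, with no threshold on measured values though with earlier results of these data known, and all 40 were found among the 57126 genes of the deposited table, 21643 of which are protein-coding. The Botox group held 4 libraries from fat pads given 0.3 units of Botox, the botulinum toxin that silences nerve endings, in 100 µL of phosphate-buffered saline (PBS), and the PBS group held 3 libraries from fat pads given 100 µL of PBS alone. In both groups the injection came 7 days before the cells, the hosts were BALB/c mice, the strain 4T1 comes from, and the tumor cells carried mCherry, by which they were sorted. The labels give each library its own mouse, and 1 label field reads "Not treated" for all 7, so groups were taken from the sample titles. The sources used here do not give the age of the mice or the number of sorted cells.

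Ribosome production starts in the nucleolus, where RNA polymerase I transcribes the ribosomal RNA precursor. Small nucleolar ribonucleoproteins (snoRNPs) of the box C/D kind methylate this RNA and those of the box H/ACA kind convert uridines to pseudouridine, while processome and assembly factors cut and fold it into the small and the large subunit. Many of these genes are known targets of the transcription factor MYC, which binds the E-box CACGTG, and tumor cells depend on a high output of the pathway.

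The deposited values are TPM, reads per length scaled to 1 fixed total, made with the genomic span of each gene, introns included, as its length. Long genes therefore have low TPM, and levels of different genes are comparable only as values per span. Estimated depth was 8.56 to 13.6 M reads per library. Botox 2 and Botox 4 stood apart: 17916 and 15625 genes were above 0 there, against 24211 and 21102 in Botox 1 and Botox 3 and 24368 to 25147 in the PBS libraries. Nuclear protein-coding genes held 8.68%, 6.996%, 11.2% and 3.71% of TPM in Botox 1 to 4, against 11.7%, 10.4% and 10.8% in PBS 1 to 3. On the deposited scale most protein-coding genes were lower after Botox, and a further scale, after division by median-of-ratios size factors (1.07, 0.891, 1.18 and 0.441 in Botox 1 to 4, against 1.42, 1.22 and 1.28 in PBS 1 to 3), is given beside it. The 10 tumor cell markers, keratins and vimentin among them, summed to 799, 466, 810 and 275 TPM in Botox 1 to 4, against 890, 866 and 834 TPM in PBS 1 to 3, and none was at 0 in all libraries. Vim, the vimentin gene, alone held 480, 263, 499 and 138 TPM in Botox 1 to 4, against 535, 502 and 504.5 TPM in PBS 1 to 3. The sum therefore mainly follows Vim. Epcam and Cdh1 averaged 1.77 and 1.72 TPM after Botox and 2.82 and 2.91 TPM after PBS. The 12 macrophage markers summed to 180, 921, 642 and 406 TPM in Botox 1 to 4, against 980, 700 and 993 TPM in PBS 1 to 3. All these sums are deposited TPM, so the low sums of Botox 4, with a size factor of 0.441, do not show low levels relative to other genes. The median log2 fold change of the 10 tested macrophage markers was -0.75, and -0.18 after size factors. For the 9 tested tumor cell markers it was -0.50, and -0.02 after size factors. Macrophages make ribosomes too, so these marker values stand beside every level below, and their part in the results was not tested. In sorted bulk RNA, fewer cells of a type and less RNA per cell cannot be told apart.

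Some members carry the E-box in their promoter. RefSeq promoter windows of 300 bases, from 250 before to 50 after the gene's start, were on hand for 34 of the 40 members, and 8 of them (23.5%) held CACGTG, against 8.09% of the 27025 genes and 7.15% of the 32851 promoters with a window. The motif reads the same on both strands and was the sole one searched. The 8 were Ltv1, Mybbp1a, Nop2, Pes1, Rrn3, Utp4, Utp20 and Wdr43. Stretches of 5 are shown because they span the roles that follow (RNA polymerase I initiation, small and large subunit), 5′ to 3′ on the sense strand of build GRCm38.p6, with CACGTG in capitals. Rrn3 lies at chr16:13780449-13780698, Nop2 at chr6:125131633-125131882, Pes1 at chr11:3963885-3964004, Utp4 at chr8:106893550-106893669 and Wdr43 at chr17:71616125-71616244, all on the plus strand.
Rrn3: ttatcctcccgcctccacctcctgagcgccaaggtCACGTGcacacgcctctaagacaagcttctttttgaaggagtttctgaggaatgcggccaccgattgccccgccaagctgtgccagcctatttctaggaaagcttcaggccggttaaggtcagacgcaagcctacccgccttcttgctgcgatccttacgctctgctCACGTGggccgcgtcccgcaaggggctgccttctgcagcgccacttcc
Nop2: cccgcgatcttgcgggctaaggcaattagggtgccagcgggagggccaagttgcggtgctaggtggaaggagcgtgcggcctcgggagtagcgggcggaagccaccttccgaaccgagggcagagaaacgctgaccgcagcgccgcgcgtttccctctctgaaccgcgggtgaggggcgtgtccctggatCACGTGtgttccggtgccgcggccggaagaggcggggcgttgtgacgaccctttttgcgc
Pes1: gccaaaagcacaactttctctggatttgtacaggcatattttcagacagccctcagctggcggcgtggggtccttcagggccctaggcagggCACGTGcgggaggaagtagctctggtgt
Utp4: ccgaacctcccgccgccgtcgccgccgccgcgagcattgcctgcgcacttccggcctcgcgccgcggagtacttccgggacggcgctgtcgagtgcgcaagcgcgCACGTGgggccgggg
Wdr43: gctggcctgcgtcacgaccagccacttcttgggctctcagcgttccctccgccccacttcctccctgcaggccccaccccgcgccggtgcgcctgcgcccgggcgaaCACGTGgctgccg
The copies of the motif in Rrn3 start at -215 and -48 from the gene's start and that of Nop2 at -60, while those of Pes1, Utp4 and Wdr43 lie just past it. A match in these windows describes the letters and does not show binding.

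No ribosome biogenesis gene passed the test after Botox, and the median of those tested was close to that of protein-coding genes as a whole. Of the 40 members, 28 reached 1 TPM in at least 3 libraries and were tested. The 12 others (Gar1, Wdr75, Utp4, Utp20, Heatr1, Rrp9, Nop14, Ddx10, Rrp12, Ltv1, Bop1 and Gnl2) are described by their values. Among the 28, 3 (Wdr12, Polr1a and Polr1c) passed through the 3 PBS libraries, with fewer than 3 Botox libraries at 1 TPM. In every library 19 reached 1 TPM. On the deposited scale limma called 0 members and 0 of 11253 genes (0% called in either direction) at a Benjamini-Hochberg adjusted p of 0.05. Without Botox 1 it called 104 genes lower and 3 higher of 10961, and 0 members. At an unadjusted p under 0.05, limma gave 0 members, against 829 genes lower (7.37%) and 15 higher (0.133%). Standard errors of the members' fold changes were 0.259 to 0.483 on the log2 scale, and 0.108 to 0.477 after size factors.

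The median log2 fold change of the 28 tested members, Botox over PBS on log2(TPM + 1), was -0.43, against -0.45 for the 7239 tested protein-coding genes, a difference of 0.02. Without the filter the median of all 40 members was -0.32, against -0.17 for 17046 protein-coding genes, a difference of -0.16, with 31 of 40 members under the protein-coding median; with size factors as well it was -0.02, at a difference of -0.01 and with 21 of 40 under it. All 28 tested members had a negative value, as did 97.4% of protein-coding genes. After size factors the member median was 0.02, against -0.02 for protein-coding genes, and 14 of 28 members were negative, against 54.7% of protein-coding genes. Every Botox value was under every PBS value for 7 of 28 members on the deposited scale, against 22.4% of all tested genes and 28.8% of tested protein-coding genes. Those 7 were Nop58, Ncl, Npm1, Gnl3, Ddx21, Wdr43 and Ubtf. The reverse, every Botox value over every PBS value, held for 0 members (0.151% of genes). After size factors 0 members were wholly under (3.88% of all tested genes) and 2, Bysl and Ebna1bp2, wholly over (3.93%). Without Botox 3 the count below was 18 of 28 (43.9% of all tested genes), and without Botox 2 and Botox 4 it was 7 (28.5%). With all libraries, the share of members below was near that of other genes on the deposited scale.

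**Figure D1:**
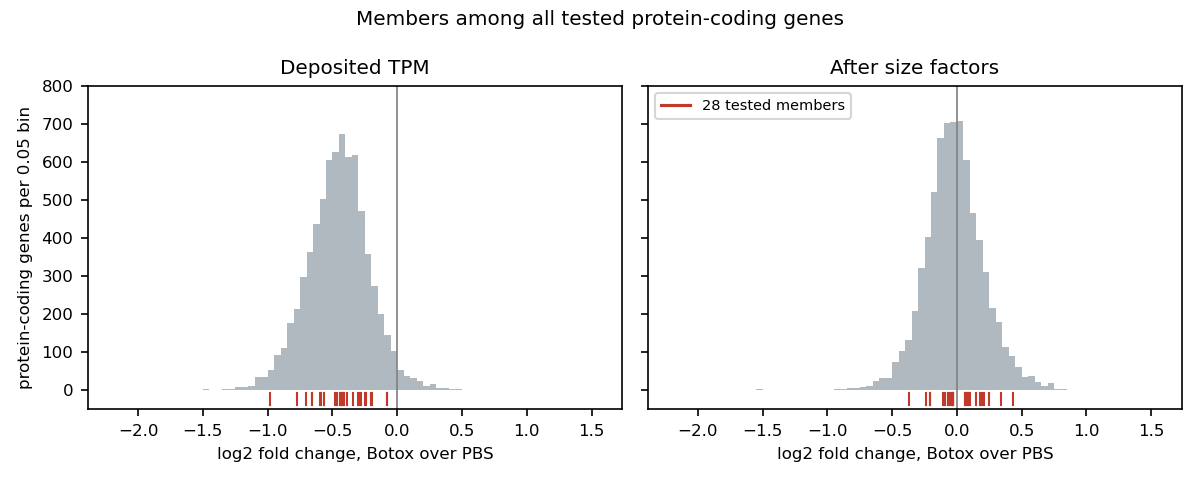
Log2 fold changes, Botox over PBS (horizontal axis), of all tested protein-coding genes as a histogram in bins of 0.05 (vertical axis, genes per bin), with the 28 tested members as red ticks, for deposited TPM (left) and after size factors (right). The members spread around the middle of the distribution on both scales, with Ncl at the low end at -0.98 and -0.37.

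Values differed widely between the Botox libraries. On the deposited scale Botox 4, with the lowest size factor (0.441), was the lowest of the 7 libraries for 37 of 40 members and lay below every PBS library for 39. Botox 2 lay below every PBS library for 33 members, Botox 1 for 24 and Botox 3 for 15. Botox 3 lay above every PBS library for 8 members, and Botox 1 for 2. After size factors Botox 1 to 4 lay below every PBS library for 5, 18, 12 and 19 members. They lay above every PBS library for 15, 9, 19 and 17. Shares over all genes for single libraries are not given here, so these counts describe the libraries and not the members. The median member had 223, 208, 232 and 103 estimated reads in Botox 1 to 4, against 196, 252 and 268 in PBS 1 to 3.

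**Figure D2:**
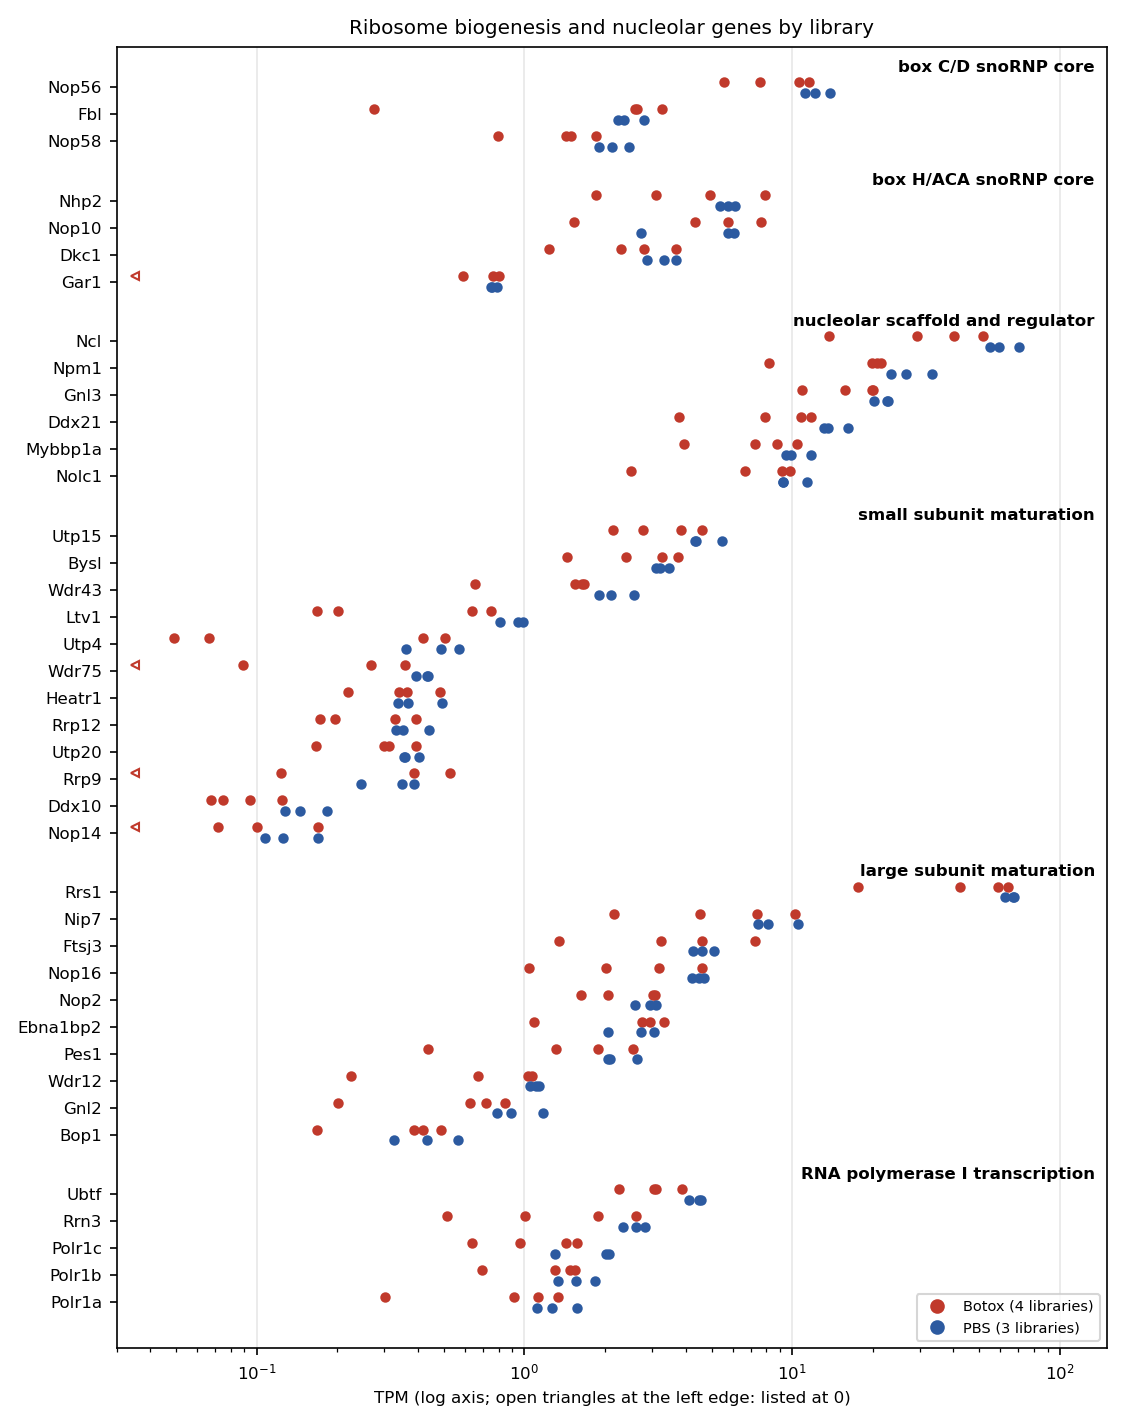
TPM on a log axis (horizontal) of each of the 40 members (vertical, grouped by role) in each library, with the 4 Botox libraries in red above the 3 PBS libraries in blue, and values listed at 0 as open triangles at the left edge. For most members 1 Botox point, that of Botox 4, lies to the left of all others, while the remaining Botox points reach into or near the PBS range.

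As a share of the TPM of nuclear protein-coding genes, which does not depend on the scale between libraries, the 40 members together held 0.296%, 0.260%, 0.241% and 0.250% in Botox 1 to 4, against 0.281%, 0.276% and 0.254% in PBS 1 to 3. The groups overlapped, and the means were 0.262% ± 0.0242 after Botox (SD, n = 4) and 0.270% ± 0.0147 after PBS (SD, n = 3). Of this, Ncl held 0.0436% ± 0.0108 after Botox (SD, n = 4) and 0.0560% ± 0.00494 after PBS (SD, n = 3). Rrs1 held 0.0582% ± 0.00825 after Botox and 0.0598% ± 0.00374 after PBS. The 37 members other than Ncl, Rrs1 and Npm1 held 0.137% ± 0.00894 after Botox and 0.129% ± 0.00535 after PBS. For reads listed under the members' own names, the difference in the sum thus lay mainly with Ncl. The 37 differed the other way, by less than 1 SD of the Botox libraries. Most reads of Npm1 stood under pseudogene copies, described below, and are not in this sum. With them Npm1 averaged 52.5 ± 20.5 TPM after Botox and 95.3 ± 20.8 TPM after PBS (SD). Its share with copies was not computed, so the place of Ncl depends on how reads were assigned.

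**Figure D3:**
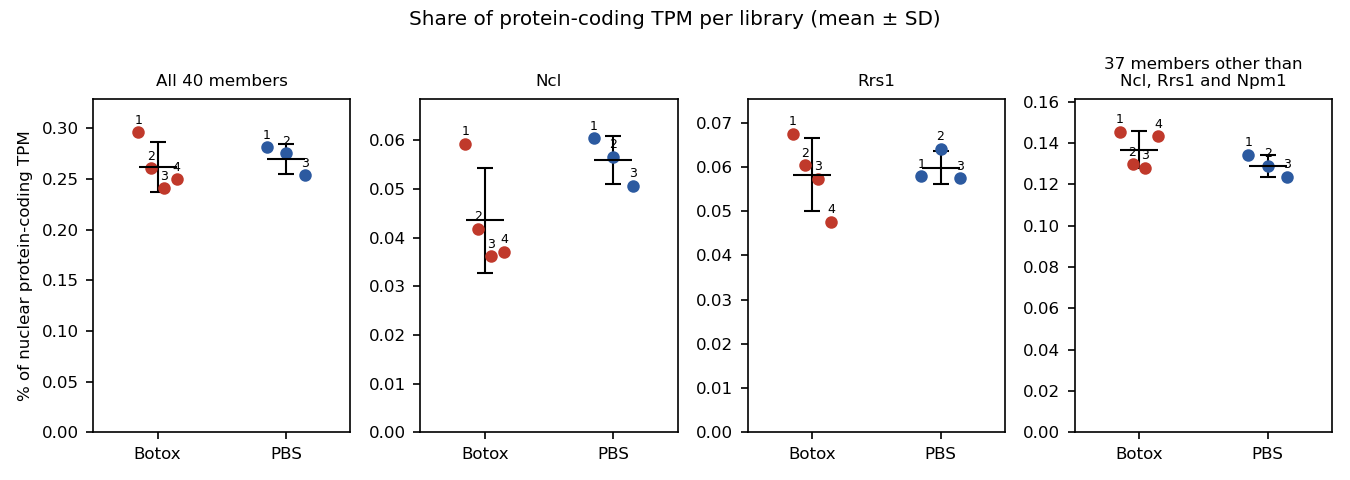
Percent of nuclear protein-coding TPM (vertical axis, from 0) held by all 40 members, by Ncl, by Rrs1 and by the 37 remaining members, with Botox libraries left of PBS libraries, numbered by replicate, and mean ± SD as bars. Ncl is at 0.0593% in Botox 1, inside the PBS range, and at 0.0419%, 0.0362% and 0.0371% in Botox 2 to 4, below all PBS libraries.

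Transcription by RNA polymerase I was covered by 5 members. Polr1a, which encodes the largest subunit, had 1.33, 0.915, 1.13 and 0.301 TPM in Botox 1 to 4, against 1.58, 1.12 and 1.27 TPM in PBS 1 to 3. Polr1b, which encodes the partner subunit that completes the catalytic centre, had 1.30, 1.55, 1.48 and 0.695 TPM in Botox 1 to 4, against 1.83, 1.34 and 1.56 TPM in PBS 1 to 3. Polr1c, a subunit shared with RNA polymerase III, had 1.57, 1.43, 0.966 and 0.635 TPM in Botox 1 to 4, against 2.07, 1.31 and 2.01 TPM in PBS 1 to 3. In each of these subunits at least 1 Botox library lay inside the PBS range, and Botox 4 was the lowest of all 7. Their log2 fold changes were -0.30 ± 0.272 for Polr1a, -0.21 ± 0.259 for Polr1b and -0.39 ± 0.271 for Polr1c (± SE, limma adjusted p 0.466, 0.574 and 0.424). After size factors they were -0.03, 0.15 and -0.03.

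The median of these 3 subunits stood 0.13 from that of the 25 other tested members on the deposited scale and -0.09 from it after size factors, so their order differed between these scales. It was 0.16 with quantile normalization, -0.07 with a pseudocount of 0.1 and -0.01 without Botox 2 and Botox 4. Without the filter, against all 37 other members, it was 0.04. Polr1a and Polr1c passed the filter through the 3 PBS libraries, where they are higher, so the filtered values are not free of that selection. Per library, the 3 subunits made up 1.63%, 2.14%, 1.33% and 1.76% of member TPM in Botox 1 to 4, against 1.67%, 1.31% and 1.76% in PBS 1 to 3. The groups overlapped, at 1.71% ± 0.335 after Botox (SD, n = 4) and 1.58% ± 0.238 after PBS (SD, n = 3).

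Rrn3, the initiation factor that brings the polymerase to the promoter, had 1.89, 1.00, 2.61 and 0.516 TPM in Botox 1 to 4, against 2.82, 2.61 and 2.34 TPM in PBS 1 to 3. Botox 3 lay inside the PBS range and the other Botox libraries below it, and the log2 fold change was -0.60 ± 0.329 (SE; limma, adjusted p = 0.424; -0.24 after size factors). Ubtf, which binds and opens the ribosomal RNA gene promoter, had 3.88, 3.04, 3.10 and 2.26 TPM in Botox 1 to 4, against 4.57, 4.49 and 4.13 TPM in PBS 1 to 3. The groups did not overlap for Ubtf, with a log2 fold change at -0.42 ± 0.283 SE (limma, adjusted p = 0.424), and they did after size factors (0.08). Rrn3 and Polr1b thus marked the low and the high end of this role on both scales.

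The box C/D snoRNP core has 3 members here. Fbl, which encodes fibrillarin, the methyltransferase of the complex, had 2.58, 2.63, 3.28 and 0.275 TPM in Botox 1 to 4, against 2.36, 2.24 and 2.79 TPM in PBS 1 to 3. Botox 1 to 3 lay inside or above the PBS range and Botox 4 far below it. The log2 fold change was -0.25 ± 0.406 (SE; limma, adjusted p = 0.65) with all libraries and 0.14 without Botox 4. Nop56, a scaffold of the complex, had 10.7, 7.56, 11.6 and 5.57 TPM in Botox 1 to 4, against 13.8, 12.1 and 11.2 TPM in PBS 1 to 3. Nop58, its paired scaffold, had 1.85, 1.49, 1.43 and 0.797 TPM in Botox 1 to 4, against 2.45, 2.13 and 1.89 TPM in PBS 1 to 3. The groups overlapped for Nop56 through Botox 3 and did not for Nop58, where Botox 1 and PBS 3 lay close to each other. Log2 fold changes were -0.48 ± 0.355 for Nop56 and -0.42 ± 0.266 for Nop58 (± SE), and 0.09 and -0.03 after size factors.

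The box H/ACA core has 4 members. Dkc1, which encodes the pseudouridine synthase dyskerin, had 2.80, 2.30, 3.69 and 1.23 TPM in Botox 1 to 4, against 3.69, 3.33 and 2.88 TPM in PBS 1 to 3. Nhp2 had 4.93, 3.09, 7.95 and 1.86 TPM in Botox 1 to 4, against 6.14, 5.36 and 5.74 TPM in PBS 1 to 3. In both, Botox 3 was the highest of the 7 libraries and Botox 4 the lowest. Nop10, the smallest protein of the complex, had 5.78, 1.53, 7.68 and 4.34 TPM in Botox 1 to 4, against 6.06, 5.74 and 2.73 TPM in PBS 1 to 3. It rested on 17 to 62 reads per library, and Botox 2 rather than Botox 4 was its lowest. Its log2 fold change, -0.08 ± 0.445 SE (limma, adjusted p = 0.893; 0.43 after size factors) had the widest error of the role. Gar1 was not tested. It had 0.805, 0.763 and 0.590 TPM in Botox 1 to 3 and was listed at 0 in Botox 4, against 0.754, 0.753 and 0.792 TPM in PBS 1 to 3.

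Small nucleolar RNAs themselves were hardly measured. The introns of 6 members (Nop56, Nop58, Dkc1, Ncl, Gnl3 and Wdr43) hold 19 annotated snoRNA genes, Snord57 and Snord110 in Nop56 among them, and all 19 were listed at 0 in all 7 libraries. Over all rows, 37 of 707 snoRNAs inside a longer gene on the same strand (5.23%) and 13 of 851 elsewhere (1.53%) were above 0 in any library, so the host genes were not set apart in this.

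The 6 nucleolar scaffold and regulator genes had the lowest median of the roles on both scales. Their median log2 fold change was -0.64, or -0.19 relative to the protein-coding median, and -0.07 after size factors, or -0.04 relative to it. Large subunit maturation was close after size factors, at -0.05. The added 1 in log2(TPM + 1) shrinks low genes more, and this role holds Ncl, Npm1 and Gnl3, which are among the members with the highest TPM. Ncl encodes nucleolin, an abundant RNA-binding protein of the nucleolus, and lies on the minus strand at chr1:86272441-86287123 in the table's build, mm39. It had 51.5, 29.3, 40.4 and 13.8 TPM in Botox 1 to 4, against 70.5, 59.0 and 54.8 TPM in PBS 1 to 3. The groups did not overlap, and Botox 1 came nearest to the PBS libraries. The means were 33.7 ± 16.1 TPM after Botox (SD, n = 4) and 61.5 ± 8.12 TPM after PBS (SD, n = 3). The log2 fold change, -0.98 ± 0.477 (SE), was the lowest of the 40 members on log2(TPM + 1), with an unadjusted limma p of 0.0635 and an adjusted p of 0.424. That rank depends on the added 1, which shrinks fold changes of low members. Wdr75 averaged 0.178 TPM after Botox and 0.421 TPM after PBS, and Ltv1 0.440 and 0.915 TPM. The log2 fold change of Ncl was -0.37 ± 0.178 after size factors (limma adjusted p = 0.924) and -0.41 without Botox 2 and Botox 4. With size factors Ncl stood at 48.0, 32.9, 34.2 and 31.2 scaled TPM in Botox 1 to 4, against 49.8, 48.4 and 42.8 in PBS 1 to 3, so Botox 1 alone lay in the PBS range.

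Ddx21, an RNA helicase that couples transcription to processing in the nucleolus, had 11.7, 7.95, 10.8 and 3.78 TPM in Botox 1 to 4, against 16.1, 13.7 and 13.2 TPM in PBS 1 to 3. The groups did not overlap, with a log2 fold change at -0.77 ± 0.404 SE (limma, adjusted p = 0.424; -0.21 after size factors). Npm1, the nucleolar chaperone nucleophosmin, had 20.7, 19.8, 21.6 and 8.20 TPM in Botox 1 to 4, against 33.4, 26.7 and 23.5 TPM in PBS 1 to 3. Botox 1 to 3 lay close together, and Botox 4 far below them. The log2 fold change was -0.71 ± 0.423 (SE; limma, adjusted p = 0.424; -0.11 after size factors). Gnl3, the nucleolar GTPase nucleostemin, had 20.04, 15.7, 19.9 and 10.9 TPM in Botox 1 to 4, against 22.6, 20.2 and 22.9 TPM in PBS 1 to 3. Its groups were separated by the small gap between Botox 1 and PBS 2, with a log2 fold change at -0.41 ± 0.365 SE (limma, adjusted p = 0.464; 0.19 after size factors). Nolc1, a chaperone of snoRNPs, averaged 7.04 ± 3.31 TPM after Botox (SD, n = 4) and 9.96 ± 1.25 TPM after PBS (SD, n = 3). Mybbp1a, a nucleolar regulator, averaged 7.61 ± 2.76 TPM after Botox and 10.4 ± 1.195 TPM after PBS.

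**Figure D4:**
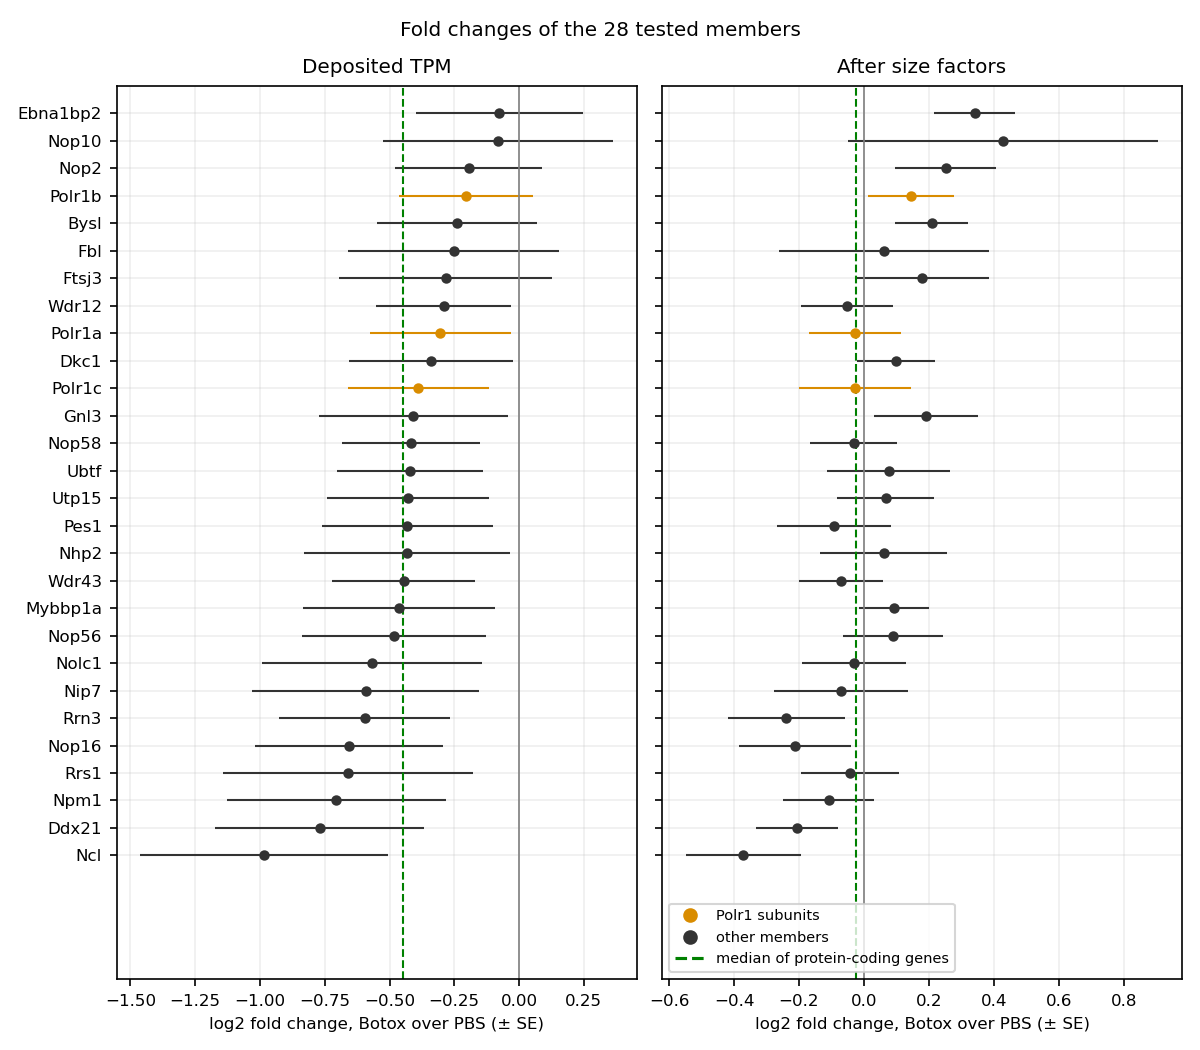
Log2 fold change, Botox over PBS, with its standard error (horizontal axis) of each of the 28 tested members (vertical axis, in order of the deposited scale), for deposited TPM (left) and after size factors (right), with the 3 Polr1 subunits in orange and the median of protein-coding genes as a dashed line. All 28 points lie below 0 on the left and 14 on the right, and most error bars reach the dashed line.

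Small subunit maturation was covered by 12 members, 3 of them tested. Wdr43, part of the complex that couples early processing to RNA polymerase I, had 1.64, 1.67, 1.54 and 0.654 TPM in Botox 1 to 4, against 2.56, 2.11 and 1.90 TPM in PBS 1 to 3. The groups did not overlap, with a log2 fold change at -0.45 ± 0.276 SE (limma, adjusted p = 0.424; -0.07 after size factors). Bysl, a late assembly factor, had 3.26, 2.39, 3.75 and 1.45 TPM in Botox 1 to 4, against 3.46, 3.10 and 3.21 TPM in PBS 1 to 3. Its groups overlapped on the deposited scale (-0.24 ± 0.308, SE, limma adjusted p = 0.579). After size factors every Botox value was over every PBS value, at 3.04, 2.69, 3.17 and 3.28 against 2.44, 2.54 and 2.50 scaled TPM (0.21 ± 0.112, limma adjusted p = 0.924). Utp15, of the same early complex as Wdr43, averaged 3.34 ± 1.11 TPM after Botox (SD, n = 4) and 4.73 ± 0.644 TPM after PBS (SD, n = 3).

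The remaining 9 small subunit genes stayed under 1 TPM in every library, and 3 of them were listed at 0 in a Botox library. Wdr75, of the early complex, had 0.268, 0.0891 and 0.357 TPM in Botox 1 to 3 and was listed at 0 in Botox 4, against 0.437, 0.393 and 0.434 TPM in PBS 1 to 3. Rrp9, a protein of the U3 particle, had 0.388, 0.528 and 0.123 TPM in Botox 1, 3 and 4 and was listed at 0 in Botox 2, against 0.388, 0.244 and 0.349 TPM in PBS 1 to 3. Nop14, a processome protein, had 0.0719, 0.101 and 0.169 TPM in Botox 1 to 3 and was listed at 0 in Botox 4, against 0.170, 0.125 and 0.107 TPM in PBS 1 to 3. From their size-factor-scaled PBS levels and the depth of the library, 41.7 reads were expected for Wdr75, 17.3 for Gar1 and 9.99 for Nop14 in Botox 4, and 17.4 for Rrp9 in Botox 2. Of protein-coding genes with 10 to 30 expected reads, 0.67%, 25.1%, 6.13% and 30% were at 0 in Botox 1 to 4. In Botox 4 that held for 63.8% of those with 3 to 10 expected reads, the bin of Nop14, and for 5.32% of those with 30 to 100, the bin of Wdr75.

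Utp4, also of the early complex, averaged 0.259 ± 0.235 TPM after Botox (SD, n = 4) and 0.473 ± 0.104 TPM after PBS (SD, n = 3), with 0.0492 and 0.0661 TPM in Botox 2 and Botox 4. Ltv1, which accompanies the small subunit to the cytoplasm, averaged 0.440 ± 0.299 TPM after Botox and 0.915 ± 0.0919 TPM after PBS. Every Botox value was under every PBS value for Ltv1, Wdr75 and the helicase Ddx10 on the deposited scale, which with the 7 above made 10 of 40 without the filter, against 15.1% of 29646 genes and 20.7% of 17046 protein-coding genes. For Ltv1 and Wdr75 that held after size factors too (4.7% of genes, 4.76% of protein-coding genes). Without the filter, limma gave an unadjusted p of 0.0282 for Ddx10 and 0.0489 for Wdr75, against 9.67% of genes lower at an unadjusted p under 0.05, and adjusted p of 0.487 for both. The scaffold proteins Utp20, Heatr1 and Rrp12 averaged 0.292 ± 0.0937, 0.351 ± 0.108 and 0.273 ± 0.107 TPM after Botox (SD, n = 4) and 0.372 ± 0.0261, 0.398 ± 0.0819 and 0.374 ± 0.0584 TPM after PBS (SD, n = 3).

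Large subunit maturation was covered by 10 members, 8 of them tested, with a median log2 fold change that stood 0.09 from the protein-coding median and, after size factors, -0.02 from it. Rrs1, which helps to place the RNA and proteins of the central protuberance, lies at chr1:9615633-9617681 on the plus strand in mm39, a span of 2048 bases. It had 58.6, 42.3, 64.0 and 17.7 TPM in Botox 1 to 4, against 67.5, 66.8 and 62.1 TPM in PBS 1 to 3. Botox 3 lay inside the PBS range and Botox 4 far below it. The log2 fold change was -0.66 ± 0.483 (SE; limma, adjusted p = 0.425), -0.04 after size factors and -0.09 without Botox 2 and Botox 4. With Ncl, Npm1 and Gnl3, Rrs1 was among the 4 members with the highest TPM, the values being per span.

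Nop16, an assembly factor of early large subunits, had 3.18, 2.02, 4.62 and 1.04 TPM in Botox 1 to 4, against 4.48, 4.24 and 4.68 TPM in PBS 1 to 3. The groups overlapped through Botox 3, with a log2 fold change at -0.66 ± 0.363 SE (limma, adjusted p = 0.424; -0.21 after size factors). Ebna1bp2, another assembly factor, had 2.93, 2.75, 3.32 and 1.09 TPM in Botox 1 to 4, against 3.04, 2.04 and 2.73 TPM in PBS 1 to 3. On the deposited scale it had the highest fold change of the 28 tested members, -0.08 ± 0.323 (SE; limma, adjusted p = 0.863). After size factors it stood at 2.74, 3.09, 2.81 and 2.47 in Botox 1 to 4, above 2.14, 1.68 and 2.13 in PBS 1 to 3. Its log2 fold change there was 0.34 ± 0.125 (SE; limma, unadjusted p = 0.03, adjusted p = 0.924). It was the sole tested member under an unadjusted p of 0.05 on that scale, against 2.12% of genes lower and 2.26% higher.

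The proteins of the complex formed by Pes1, Bop1 and Wdr12, which processes the large subunit RNA, had low levels. Pes1 averaged 1.54 ± 0.890 TPM after Botox (SD, n = 4) and 2.26 ± 0.331 TPM after PBS (SD, n = 3). Wdr12 averaged 0.751 ± 0.393 TPM after Botox and 1.097 ± 0.0463 TPM after PBS, and Bop1 0.365 ± 0.138 TPM after Botox and 0.442 ± 0.120 TPM after PBS. The RNA methyltransferases Nop2 and Ftsj3 averaged 2.44 ± 0.722 and 4.11 ± 2.48 TPM after Botox and 2.88 ± 0.256 and 4.65 ± 0.434 TPM after PBS. Nip7, a small assembly factor, averaged 6.08 ± 3.51 TPM after Botox and 8.69 ± 1.61 TPM after PBS, and the GTPase Gnl2 0.598 ± 0.280 TPM after Botox and 0.949 ± 0.198 TPM after PBS. In all of these the Botox SD exceeded the PBS SD, with Botox 4 the lowest library.

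Part of the reads of some members stood under pseudogenes. In GENCODE M21, 30 pseudogenes matched transcripts of 12 members at 90% identity or more over at least 200 bases and 50% of the pseudogene. The build of that annotation, GRCm38, differs from that of the table, so genes were joined by ID and no coordinate was used. For Npm1, 9 copies, chiefly Gm14681 and Gm9118, held 66.0% ± 3.35 of the estimated reads of gene and copies after Botox (SD, n = 4) and 70.6% ± 1.2 after PBS (SD, n = 3). For Nop56 the copies held 34.6% ± 6.45 after Botox and 38.9% ± 2.18 after PBS. Reads of a gene and a near-identical copy cannot be assigned with certainty, so the levels of Npm1 and Nop56 under their own names are uncertain.

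Fbl differed by library. In Botox 4 27 estimated reads stood under Fbl and 197 under Fbl-ps2, so copies held 88.0% there, against 20%, 0.85% and 5.19% in Botox 1 to 3 and 2.22%, 13.3% and 11.5% in PBS 1 to 3. With the reads of its copies added, Fbl had 3.22, 2.65, 3.46 and 2.28 TPM in Botox 1 to 4, against 2.41, 2.59 and 3.16 TPM in PBS 1 to 3, and its log2 fold change turned positive, at 0.07 (0.53 after size factors). Npm1 with copies was at -0.93 (-0.31 after size factors) and Nop56 at -0.59 (0.00 after size factors). In the sum of gene and copies Botox 4 was still the lowest library for Fbl, though at 2.28 TPM it lay near PBS 1 at 2.41 TPM. Adding the copies was chosen after seeing the data.

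**Figure D5:**
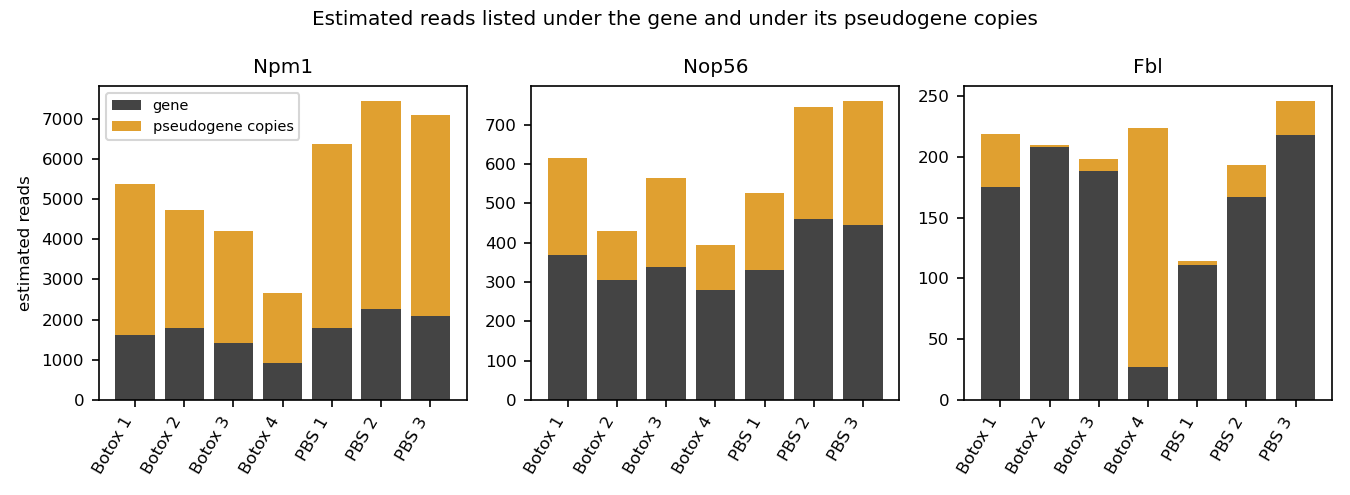
Estimated reads per library (vertical axis) listed under Npm1, Nop56 and Fbl (dark) and under their pseudogene copies (orange), with Botox 1 to 4 left of PBS 1 to 3. Copies exceed the gene for Npm1 in all 7 libraries and for Fbl in Botox 4, where 197 of the reads stand under the copy.

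Other genes of the pathway were taken from lists beyond the 40. Of 46 other small subunit factors 29 were tested, of 43 other large subunit factors 31, of 16 other RNA polymerase I genes 11, of 12 RNA exosome genes 7, and of 11 genes of the MYC network 9. On the deposited scale limma called 0 of them, as it did 0 of all 11253 genes. At an unadjusted p under 0.05 limma gave 1 gene, Mxi1 (0.0466, lower), against 7.37% of all tested genes lower and 0.133% higher. After size factors it gave 0 lower, and 1 small subunit factor and 1 large subunit factor higher. Of all tested genes 2.12% were lower and 2.26% higher there. Their median log2 fold changes stood -0.01, 0.12, -0.08, 0.11 and -0.08 from the protein-coding median on the deposited scale, in that order, and 0.06, 0.08, -0.01, 0.17 and 0.08 from it after size factors.

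The genes named next have the 3 smallest limma p of their list, on a scale where 97.4% of protein-coding genes were lower. The highest log2 fold changes of the small subunit, large subunit, RNA polymerase I and exosome lists were 0.03, -0.04, 0.08 and -0.04. After size factors they were 0.49, 0.39, 0.43 and 0.34. Among the other small subunit factors Tsr2, a chaperone, averaged 2.25 ± 1.15 TPM after Botox (SD, n = 4) and 4.22 ± 0.975 TPM after PBS (SD, n = 3). Pno1 averaged 1.95 ± 1.27 TPM after Botox and 3.75 ± 0.920 TPM after PBS, and Utp6 1.54 ± 0.513 TPM after Botox and 2.54 ± 0.512 TPM after PBS. Among the large subunit factors Nsa2 averaged 5.79 ± 2.11 TPM after Botox and 10.7 ± 3.203 TPM after PBS, Nifk 3.40 ± 1.61 TPM after Botox and 5.50 ± 0.560 TPM after PBS, and Senp3, a SUMO protease, 5.31 ± 2.48 TPM after Botox and 8.39 ± 0.748 TPM after PBS. Of the RNA polymerase I genes, the subunit Polr1f averaged 2.87 ± 1.23 TPM after Botox and 5.14 ± 1.03 TPM after PBS, the promoter factor Taf1c 2.09 ± 1.05 TPM after Botox and 3.43 ± 0.429 TPM after PBS, and the shared subunit Polr2e 4.87 ± 3.65 TPM after Botox and 7.47 ± 0.868 TPM after PBS. The exosome genes Exosc2, Dis3 and Exosc5 averaged 2.11 ± 0.979, 1.66 ± 0.718 and 1.02 ± 0.510 TPM after Botox and 3.23 ± 0.110, 2.46 ± 0.398 and 1.498 ± 0.0980 TPM after PBS. All had an adjusted limma p of 0.424 or more.

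Myc itself had 50.4, 14.8, 47.1 and 15.2 TPM in Botox 1 to 4, against 53.6, 49.9 and 46.3 TPM in PBS 1 to 3. On the deposited scale Botox 1 and Botox 3 lay in the PBS range, and Botox 2 and Botox 4 at a lower level shared by both. The size factors of Botox 2 and Botox 4 were 0.891 and 0.441, so that level is not shared after size factors. The log2 fold change was -0.85 ± 0.515 (SE; limma, adjusted p = 0.424; -0.24 after size factors). Max, the partner of MYC, averaged 2.94 ± 0.837 TPM after Botox (SD, n = 4) and 4.57 ± 0.427 TPM after PBS (SD, n = 3), and Mxi1, an antagonist, 1.61 ± 0.370 TPM after Botox and 2.90 ± 0.286 TPM after PBS.

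The authors' deposited table on KEGG sets, whose "B vs C" is read here as Botox against control, lists "Ribosome biogenesis in eukaryotes" with 48 genes at a ratio of 0.837. In the authors' deposited table that is the highest of 227 sets, all below 1, with 0.822 next and a median of 0.683. The authors' deposited table gives a p of 6.42e-12 and a false discovery rate of 2.35e-11 for this set, and set means of 478 in B and 572 in C on a scale that is not stated. A false discovery rate under 0.05 stands beside 220 of the 227 sets in the authors' deposited table. In the authors' deposited table the set "RNA polymerase" is at 0.695 and "RNA degradation" at 0.705. The authors label these set results a gene set "ANNOVA", with p columns for treatment and for disruption. The further computation, and which of the 40 members were used, are not stated. Whether genes or mice counted as replicates is not stated either. The p-values and false discovery rates of these sets are therefore not read here as evidence across mice.

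The 18S ribosomal RNA row Rn18s-rs5 was at 12.0, 7.38, 3.24 and 16.2 TPM in Botox 1 to 4, against 101, 47.1 and 1.39 TPM in PBS 1 to 3. Ribosomal RNA had been depleted from the libraries, so this row does not measure the product of the pathway.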

How the data were processed

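Per the labels' protocols, Trizol extracts of the sorted cells went into stranded, paired-end libraries after ribosomal RNA depletion. Per the submitters' processing notes, the tools were SAMtools, DESeq2 and Bowtie2 2.2.5, without their roles, and the genome mm39. How reads were counted, with which strand setting and what became of multi-mapping reads is not given in the sources used here, and 16 members are overlapped by a gene on the other strand. The authors deposited TPM to which 0.001 had been added in every row, and their length column equals the genomic span; the 0.001 was subtracted. Reads were estimated from the smallest step of TPM times span, and 88.6% to 89.8% of values under 20 reads came within 0.1 of a whole number (20% by chance); they serve for description. The authors' deposited KEGG table gives a ratio, a signed fold change (a score), p-values and set means (a signal of unstated scale) per set.

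Rows reaching 1 TPM in 3 or more libraries were fitted in limma 3.58.1 (R 4.3.3) as log2(TPM + 1) (intensity trend, group as the sole term, two-sided, Benjamini-Hochberg over 11253 genes). Fold changes on this scale understate those of low genes. Shares and medians were given no test. Alternatives were 16 other settings: 3 other scalings, values not divided by span, pseudocounts of 0.1 and 5, no filter, libraries left out and a replicate block. Promoters came from RefSeq (GRCm38.p6); pseudogene copies were found with BLAST 2.17.0. Members and lists were chosen with earlier results of these data known. All members were named, with values in every library for the snoRNP cores, the RNA polymerase I genes, the 8 smallest p, the 4 highest TPM, the extremes of each role among tested members and any member at 0, and 3 genes by smallest p from each other list. Each library comes from its own mouse per the labels.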

Additional observations from a re-analysis of the deposited data

Results flagged for a closer look

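In 2 of 41 groups of 4 Botox libraries examined, for the 40 members and their summed share, 1 library lay far from the others, and chance flags about 1 group in 20. Both cases are Botox 4. Npm1 was at 8.204 TPM in Botox 4, against 19.84 to 21.55 TPM in the other Botox libraries. Wdr43 was at 0.654 TPM in Botox 4, against 1.543 to 1.665 TPM in the other Botox libraries. After size factors Npm1 stood at 18.6 scaled TPM in Botox 4, against 18.2 to 22.3 in the other Botox libraries, and Wdr43 at 1.48, against 1.31 to 1.87. The size factor of Botox 4 was 0.441, the lowest of the 7 libraries.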

How the results depend on the processing

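Limma called 0 members under all 16 alternatives. Over all genes it called 104 lower and 3 higher of 10961 without Botox 1, 22 lower of 29646 without the filter, 1 higher with size factors and 1 higher with quantile normalization, and 0 under the other 12. The median relative to protein-coding genes, 0.02, moved to -0.16 when all 40 members and 29646 genes were fitted without the filter (-0.01 with size factors as well), and lay between -0.01 and 0.05 when single libraries were left out. The Polr1 subunits relative to the other members moved from 0.127 to -0.0889 with size factors and ranged over 0.10 to 0.21 with single libraries left out. Members with all Botox libraries below all PBS libraries numbered 0 with size factors (3.88% of all genes), with quantile normalization (3.79%), with protein-coding genes only (4.83%) and with values not divided by span (5.55%). With single libraries left out they numbered 7 to 18, the 18 without Botox 3, against 23% to 43.9% of all genes. Members with all Botox libraries above all PBS libraries numbered 2 with size factors (3.93% of all genes) and 3 with quantile normalization (4.93%). The difference in the members' share of protein-coding TPM, -0.00826 points, ranged from -0.0197 to -0.00123 with single libraries left out.

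No member was past the threshold on any scale, and many signs turned with the scale, which for the other scalings follows from their construction. With size factors 14 members turned positive: Fbl (0.0622), Nop56 (0.089), Dkc1 (0.0985), Nhp2 (0.0605), Nop10 (0.429), Gnl3 (0.191), Mybbp1a (0.0919), Utp15 (0.0667), Bysl (0.209), Nop2 (0.252), Ebna1bp2 (0.34), Ftsj3 (0.18), Polr1b (0.146) and Ubtf (0.0762). With quantile normalization 14 did: Fbl (0.157), Dkc1 (0.0898), Nop10 (0.359), Gnl3 (0.14), Utp15 (0.012), Bysl (0.193), Wdr12 (0.238), Nop2 (0.239), Ebna1bp2 (0.347), Ftsj3 (0.141), Polr1a (0.161), Polr1b (0.216), Polr1c (0.031) and Ubtf (0.0298). With protein-coding genes only, rescaled, 4 did: Nop10 (0.148), Heatr1 (0.0565), Nop2 (0.00468) and Ebna1bp2 (0.141). With values not divided by span 10 did: Nop10 (0.284), Gnl3 (0.0247), Utp20 (0.0428), Heatr1 (0.219), Bysl (0.104), Bop1 (0.0954), Nop2 (0.166), Ebna1bp2 (0.29), Ftsj3 (0.046) and Polr1b (0.0729). Without Botox 2 and Botox 4, 8 did: Fbl (0.179), Nhp2 (0.112), Nop10 (0.449), Bysl (0.0809), Nop2 (0.0638), Nip7 (0.0172), Ebna1bp2 (0.203) and Ftsj3 (0.272). With single libraries left out, Fbl ranged from -0.44 to 0.14, Ebna1bp2 from -0.19 to 0.16, Ftsj3 from -0.56 to 0.0437 and Nop10 from -0.38 to 0.28; the cause was not tested. With the reads of its pseudogene copies added, an alternative chosen after seeing the data, Fbl was at 0.0653.

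The replicate numbers were not taken as pairs, since each library has its own mouse. Deviations of same-numbered libraries from their group means correlated at 0.093, -0.028 and -0.178 for numbers 1 to 3. So few libraries cannot settle whether a number marks a shared batch. With the replicate number as a block, limma called 0 members and 0 genes, the median relative to protein-coding genes was 0.03, and Fbl (0.14), Ebna1bp2 (0.16) and Ftsj3 (0.0437) turned positive; Botox 4 has no partner in that fit and adds nothing to it.

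The filter acts on TPM per span and not on reads: 12 of 40 members were not tested, Utp20 with 137 to 264 reads among them, while Nop10 was tested with 17 to 62. Estimated depth was 10.5 M reads in Botox 2 and 8.88 M in Botox 4, against 8.56 M in Botox 3. The 4 members listed at 0 in Botox 2 or Botox 4 had 9.99 to 41.7 expected reads there. The cause of these zeros was not tested. Medians and shares of members were given no test, and reads estimated from TPM cover counting error only.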
